A study of Mus musculus with 4 samples.

Results

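The genes described here were the cell surface receptors for lysophosphatidic acid (LPA) and sphingosine-1-phosphate (S1P), with *Enpp2*, which encodes autotaxin, the secreted enzyme that makes LPA outside the cell. They were taken by symbol from the table of read counts, which held all 9 genes sought (*Lpar1*, *Lpar2*, *Lpar3*, *Lpar4*, *Lpar6*, *S1pr1*, *S1pr2*, *S1pr3* and *Enpp2*) among 48587 rows. The cells were primary vascular smooth muscle cells (VSMCs) that had grown out of descending aortas of adult C57BL/6J mice, after the adventitia had been removed with enzymes and the endothelium scraped off. All cultures were transduced with a lentivirus. In the control group, shCTR, it carried a hairpin directed at a plant microRNA, in a vector that also encoded GFP, and in the group shMettl14 it carried a hairpin against *Mettl14*, a subunit of the enzyme that methylates adenosines of mRNA to N6-methyladenosine (m6A). Each group had 2 libraries of poly-A RNA, with the letters A and B, and no source says whether a letter stands for one culture. With 2 libraries a group, all p-values measure only the spread between these libraries, which may be technical.

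LPA and S1P are small phospholipids of serum and plasma that act through G protein-coupled receptors. The LPA receptors fall into an older branch, to which *Lpar1*, *Lpar2* and *Lpar3* belong and which shares ancestry with the S1P receptors, and a second branch related to the purinergic receptors, to which *Lpar4*, *Lpar5* and *Lpar6* belong. In the vessel wall S1P receptor 1, which couples to Gi, is best known from the endothelium, whereas receptors 2 and 3 also couple to Gq and G12/13 and are known from smooth muscle, where the G12/13 arm drives contraction and the transcription regulators SRF and YAP. LPA and S1P in serum are long known as growth and contraction signals for cultured VSMCs.

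The study examined mRNAs that depend on *Mettl14*, and the words GGAC and GGACT, the core of the sequence that the m6A enzyme prefers, were located in the longest coding transcript of each gene. The place examined was the stop codon with 100 bases on each side, a window of 203 bases, since m6A is known to cluster there. The transcript strand alone was searched, GGACT being counted within GGAC as well. GGAC stood in this window in 6 of the 9 genes, against 58.5% of 19739 mouse genes, and GGACT in 2 of the 9, against 23.1%. These 2 were *Lpar2* and *Lpar6*. The sites shown are those of both genes and the GGAC nearest to the stop codon in *S1pr1* and *Lpar1*, the most abundant receptors of each family, with that word in capitals. The *S1pr1* stretch holds a second GGAC, farther from the stop codon, left in lower case.
*Lpar2*, chr8:69826597-69826626, plus strand: ccctttaaaccttGGACtgaggcaggagac
*Lpar6*, chr14:73239643-73239672, plus strand: gactaagccactgGGACtgctccgtgttca
*S1pr1*, chr3:115711830-115711859, minus strand: agaaggacgatggGGACaacccagagacca
*Lpar1*, chr4:58437232-58437261, minus strand: ccagaggagatgaGGACactcctgtactta
The sequences are those of GENCODE M21 transcripts on GRCm38, each read 5′ to 3′ along the transcript. In *Lpar2* the word began 6 bases after the last base of the stop codon, in *Lpar6* 21 bases and in *Lpar1* 85 bases after it, all in the 3′ UTR, whereas in *S1pr1* it lay in coding sequence, 46 bases before the stop codon. The *Lpar2* transcript, of 5800 bases, held 35 copies of GGAC and 14 of GGACT, and both GGAC words of its window were GGACT. This was 2.41 copies of GGACT per kb, close to *Lpar1* and *Enpp2* with 2.26 each, against 1.07 per kb over all transcripts. *S1pr1* held 1 GGACT in 3046 bases and *Lpar4* 1 in 4238. A word in the sequence is not a measured m6A site.

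*Mettl14* itself was checked first. It had 2050 counts in shCTR A, 2154 in shCTR B, 546 in shMettl14 A and 568 in shMettl14 B, so both libraries of its hairpin were below both controls. The log2 fold change was -2.08 (SE 0.25), with an unadjusted edgeR p under 0.05 and an adjusted p of 1. Totals ranged from 114343653 to 124815868 counts per library, and the 3 counts that a count of 0 allows were between 0.0231 and 0.0278 CPM (counts scaled to the TMM-adjusted size of each library). This limit covers counting error only. Of 18916 genes tested with edgeR's quasi-likelihood test, 0 (0%) had a Benjamini-Hochberg adjusted p under 0.05 and 315 (1.67%) an unadjusted p under 0.05, 124 higher and 191 lower with shMettl14. DESeq2 called 5 genes, *Mettl14* among them. The libraries grouped by letter before hairpin, the first principal component (63.7% of the variance) separating A from B and the second (22.5%) the hairpins within each letter.

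Defining smooth muscle genes were present, but so were endothelial ones. *Acta2*, smooth muscle actin, lay between 2073 and 3547 CPM and *Tagln* between 1616 and 2449 CPM, whereas *Myocd*, the smooth muscle coactivator, lay at 0.546 to 7.1 CPM. *Pecam1* was at 477 to 820.2 CPM and *Cdh5*, the cadherin of endothelial junctions, at 508 to 818 CPM. All 10 endothelial markers were tested and had counts in every library, and their summed level was 2094 CPM in shCTR A, 4159.5 in shCTR B, 1952 in shMettl14 A and 2665 in shMettl14 B. The labelled cell type is therefore not the only one whose markers these libraries held. For the 8 smooth muscle markers the sums in the same order were 6799, 5772, 4442 and 4811 CPM, and all 8 had a negative log2 fold change with a median of -0.41. That of *Myocd* was -0.02. Within both letters 6 of the 8 were lower, beside 27.6% of all genes tested. In 3 of the 8 both shMettl14 libraries were below both controls, beside 13.3% of all genes tested. Of the 8, *Acta2* alone had an unadjusted edgeR p under 0.05, with an adjusted p of 1, beside 1.67% of all genes tested. Summed leukocyte markers were at 13.3 to 18.9 CPM, adipocyte markers at 7.67 to 9.43 CPM and adventitial fibroblast markers at 858 to 1115 CPM. Nearly all of the adipocyte sum was *Fabp4* (7.45 to 9.26 CPM). Nearly all of the fibroblast sum came from *Cd34* (414 to 505 CPM), *Ly6a*, *Col14a1* and *Mfap5*. The fibroblast markers *Dpt*, *Pi16*, *Clec3b*, *Dpep1* and *Lum* were each at no more than 1.92 CPM. In such bulk RNA, fewer cells of a type and less RNA per cell cannot be told apart.

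S1P receptor 1 was by far the most abundant of the receptor mRNAs. Divided by the length of its exons, *S1pr1* had a mean over the 4 libraries of 56.8 CPM per kb, with a range of 42.6 to 69.5. *Lpar1* followed with 11.2 CPM per kb (8.82 to 12.7), and its range lay apart from that of *S1pr1* and from that of the next gene. *S1pr2*, at 3.65 CPM per kb, and *Lpar6*, at 3.61, had overlapping ranges. That of *Lpar6* (2.77 to 4.29) lay apart from the genes below, whereas that of *S1pr2* (2.16 to 4.78) reached down into those of *Lpar4* and *S1pr3*. *Lpar4* at 1.69, *S1pr3* at 1.53, *Lpar2* at 0.729 and *Enpp2* at 0.508 CPM per kb formed a chain in which each range overlapped the next. Below them, and apart from *Enpp2*, *Lpar3* had 0.048 CPM per kb. Its range overlapped those of the other receptors of both families, which had 0.139 CPM per kb for *S1pr4*, 0.0815 for *S1pr5* and 0.00291 for *Lpar5*, whose 2 counts both came from shCTR A.

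**Figure D1:**
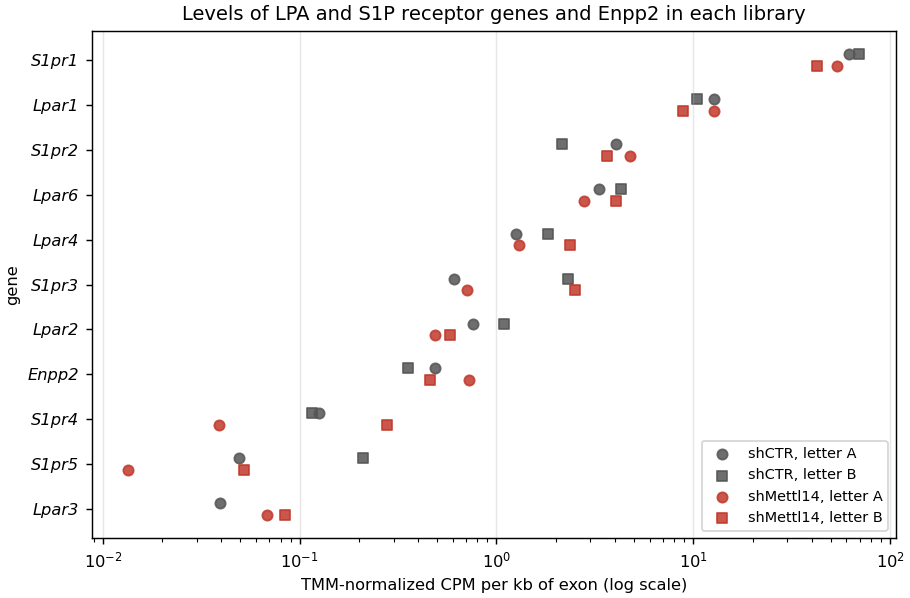
Level of each gene in each of the 4 libraries, in TMM-normalized CPM per kb of exon on a log axis, with shCTR in grey and shMettl14 in red, circles for letter A and squares for letter B. *S1pr1* (42.6 to 69.5) and *Lpar1* (8.82 to 12.7) stand to the right of all others. The 0 of *Lpar3* in shCTR B cannot be drawn on a log axis, and *Lpar5* is left out.

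The 2 families differed in how evenly their members shared the mRNA. *S1pr1* made up 92.7% and 93.5% of the summed per-length level of the 5 S1P receptors in shCTR A and B, and 90.7% and 86.8% in shMettl14 A and B. Its share was thus lower in both shMettl14 libraries, with means of 93.1% ± 0.574 (SD, n = 2) and 88.7% ± 2.74 (SD, n = 2). The share of *S1pr2* was 6.09% and 2.91% in shCTR A and B and 8.06% and 7.42% in shMettl14 A and B, without overlap. Shares are parts of one sum, so the lower share of *S1pr1* and the higher share of *S1pr2* are not separate results. The CPM of *S1pr2* itself overlapped between the groups, with 32.2 in shCTR A and 29 in shMettl14 B. *S1pr3* held 0.913% and 3.1% in shCTR and 1.19% and 5.13% in shMettl14, the higher value in letter B each time. Among the 6 LPA receptors *Lpar1* held 70.2% and 59% in shCTR A and B and 73.3% and 55.5% in shMettl14 A and B, so its share followed the letter. *Lpar6* held between 16% and 25.4%, *Lpar4* between 6.95% and 14.9% and *Lpar2* between 2.8% and 6.19%. *Lpar2* was the only LPA receptor above 1 CPM whose shares did not overlap between the hairpins, with 4.2% and 6.19% in shCTR against 2.8% and 3.65% in shMettl14. With 2 libraries against 2 the smallest p that an exact two-sided permutation test can give is 0.333, and the shares are given without a test.

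**Figure D2:**
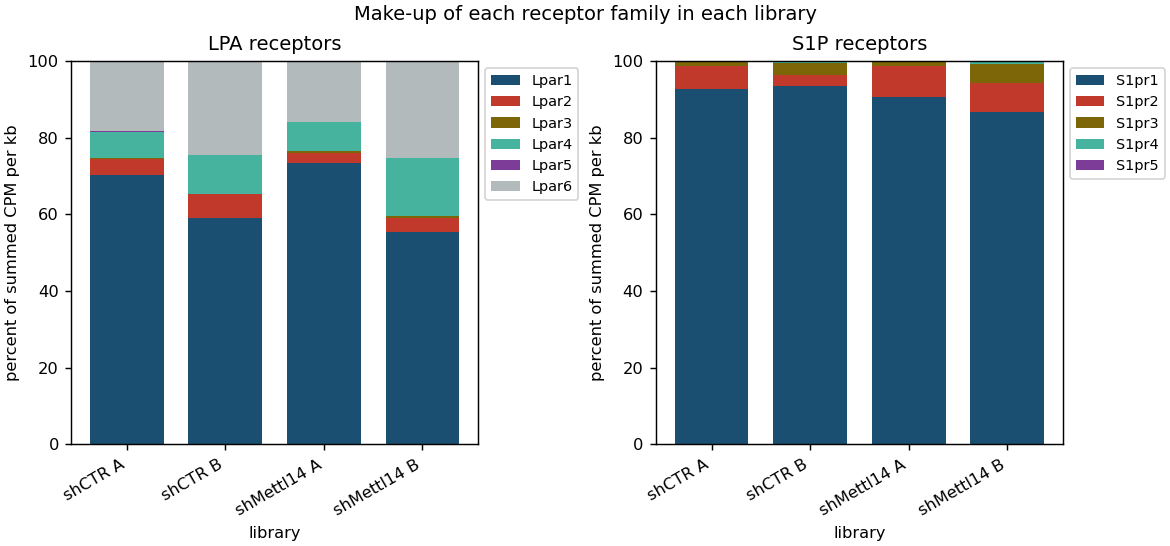
Share of each receptor in the summed CPM per kb of its family, in percent, for each library, with LPA receptors on the left and S1P receptors on the right. *S1pr1* fills 86.8% to 93.5% of the S1P bars, whereas *Lpar1* fills 55.5% to 73.3% of the LPA bars, more in letter A than in letter B.

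None of the 9 genes passed the comparison of shMettl14 with shCTR, and with edgeR neither did *Mettl14* itself, the target of the hairpin. With edgeR 0 of 9 had an adjusted p under 0.05 and 0 of 9 an unadjusted p under 0.05, against the 0% and 1.67% of all genes tested. DESeq2 also gave 0 adjusted, and 1 unadjusted, which was *Lpar2*, beside 5 adjusted and 442 unadjusted of 29127 genes. The log2 fold change was negative in 4 genes (*Lpar1*, *Lpar2*, *Lpar6* and *S1pr1*) and positive in 5 (*Lpar3*, *Lpar4*, *S1pr2*, *S1pr3* and *Enpp2*), with a median of 0.15 beside 0.009 over all genes. Each kept its sign within both letters, the first 4 being lower in A and in B, as were 27.6% of all genes, and the other 5 higher in both, as were 30% of all genes, although on library totals without TMM *Lpar1* was at 0.08 within letter A and *Lpar6* at 0.05 within letter B. In *Lpar2* and *S1pr1* both shMettl14 libraries were below both controls, which held for 13.3% of all genes. In *Lpar3* both were above, which held for 14.7%.

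**Figure D3:**
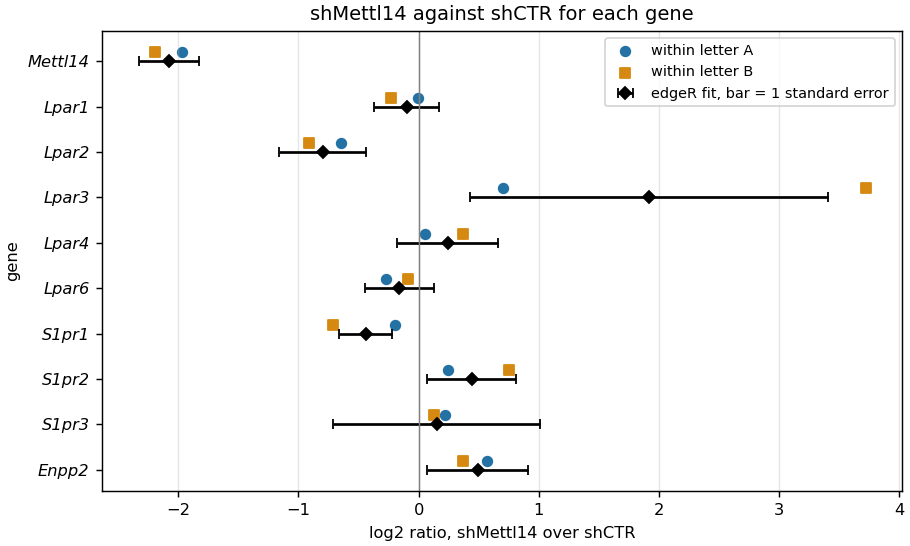
Log2 ratio of shMettl14 over shCTR for *Mettl14* and the 9 genes, with the edgeR log2 fold change and 1 standard error on each side in black, and the ratios within letter A (circles) and letter B (squares). *Mettl14* lies at -2.08, *Lpar2* at -0.80 and *S1pr1* at -0.44, and the bars of *Lpar1*, *Lpar4*, *Lpar6* and *S1pr3* cross 0.

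*Lpar2* encodes the LPA receptor that binds PDZ scaffold proteins through its tail and couples to Gi, Gq and G12/13. The gene lies on chromosome 8 from 69822429 to 69831102, plus strand, and its exons overlap no other annotated gene. It had 506 counts in shCTR A and 686 in shCTR B, and 337 in shMettl14 A and 440 in shMettl14 B. As CPM these were 4.45 and 6.35 in shCTR (mean 5.4 ± 1.34, SD, n = 2) and 2.84 and 3.38 in shMettl14 (mean 3.11 ± 0.385, SD, n = 2). The higher value came from letter B in both groups, and the lowest control was above the highest shMettl14 library. Within letter A the log2 ratio was -0.65, and within letter B it was -0.91. The edgeR log2 fold change was -0.80 (SE 0.36, adjusted p = 1), and that of DESeq2 also -0.80 (SE 0.39, adjusted p = 1). *Lpar2* had been singled out by the study from this experiment, so its direction here is not independent evidence. The genes whose levels over the 4 libraries ran closest to those of *Lpar2*, of 9098 genes with at least 10 CPM, were *Sept8*, a septin, *Ell2*, a transcription elongation factor, and *1700025G04Rik*. Their log2 CPM, centred over the libraries, differed from those of *Lpar2* by a root mean square of 0.024, 0.038 and 0.069. *Sept8*, for example, had 153 and 216 CPM in shCTR A and B and 98 and 120.5 CPM in shMettl14 A and B.

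*Lpar1*, the most widely expressed LPA receptor, lies on chromosome 4 from 58435255 to 58553898, minus strand. It had 54.7 and 44.5 CPM in shCTR A and B and 54.6 and 37.8 CPM in shMettl14 A and B. The letter A libraries were nearly equal, with a log2 ratio of -0.0025, and in letter B it was -0.23. The log2 fold change was -0.10 (SE 0.27). Leaving out shCTR A turned it to 0.06 and leaving out shMettl14 B to 0.14, so its sign rested on which libraries were used. *Lpar3*, a receptor that prefers LPA with unsaturated chains (chromosome 3, 146220963 to 146286186, plus strand), was near the limit of detection, with 11 counts in shCTR A, 0 in shCTR B, 20 in shMettl14 A and 27 in shMettl14 B. It met the filter on low counts in shCTR A and both shMettl14 libraries, and not in shCTR B. Its log2 fold change was 1.92 (SE 1.49), the largest of the 9 in size and the one with the largest standard error.

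Of the purinergic branch, *Lpar4* and *Lpar6* were higher in letter B under both hairpins. *Lpar4*, a receptor coupled to G12/13 and Gs (chromosome X, 106920625 to 106933900, plus strand), had 5.34 and 7.76 CPM in shCTR A and B and 5.52 and 10 CPM in shMettl14 A and B. The letter B library was the higher in each group, and the groups overlapped. The log2 fold change was 0.24 (SE 0.42), and -0.24 without shMettl14 B. *Lpar6*, the receptor whose human counterpart is known from inherited hair loss, lies within *Rb1*, on the opposite strand (chromosome 14, 73237895 to 73243294, plus strand), and 7.56% of its exon bases overlap exons of *Rb1*. It had 18 and 23.2 CPM in shCTR A and B and 14.9 and 21.8 CPM in shMettl14 A and B, again higher in letter B. The log2 fold change of -0.16 (SE 0.29) became 0.03 without shCTR B and 0.08 without shMettl14 A. Whether the counting used strand is not stated, so the counts of *Lpar6* from the shared bases could be affected, in a direction not known.

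*S1pr1*, on chromosome 3 from 115710433 to 115715072, minus strand, had 187 and 212 CPM in shCTR A and B (mean 199 ± 17.1, SD, n = 2). In shMettl14 A and B it had 164 and 129.8 CPM (mean 147 ± 23.9, SD, n = 2). Both shMettl14 libraries were below both controls, and letter B held the highest control and the lowest shMettl14 library. Within letter A the log2 ratio was -0.20, within letter B it was -0.71, and the log2 fold change was -0.44 (SE 0.22, adjusted p = 1). The summed endothelial markers, given above, were also lower in shMettl14 than in shCTR within each letter, by less in A than in B. In letter A this rested on *Emcn*. Without it, a choice made after seeing the data, the other 9 summed to 1446 CPM in shCTR A and 1468 in shMettl14 A, with 5 higher and 4 lower, and to 2060.0 CPM in shCTR B and 1588 in shMettl14 B, with 2 higher and 7 lower. Of the 10, 3 were higher and 7 lower, with a median log2 fold change of -0.12. *Cdh5* went from 508 to 566 CPM within letter A and from 818 to 617 CPM within letter B, and *Emcn*, an endothelial sialomucin, from 649 to 484 and from 2099 to 1077 CPM. The part of endothelial RNA in the *S1pr1* values was not tested.

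The log2 fold changes of *S1pr2* and *S1pr3* were positive, and neither passed the test. *S1pr2* (chromosome 9, 20962361 to 20976781, minus strand), the receptor that acts mainly through G12/13, had 32.2 and 17.2 CPM in shCTR A and B and 38.1 and 29 CPM in shMettl14 A and B. It was higher in letter A in both groups, and shMettl14 B lay below shCTR A, so the groups overlapped. Letter A gave a log2 ratio of 0.24 and letter B one of 0.75, and the log2 fold change was 0.44 (SE 0.37). *S1pr3* (chromosome 13, 51408639 to 51422797, plus strand), a Gq-coupled receptor known from smooth muscle, differed between letters much more than between hairpins. It had 2.7 CPM in shCTR A and 3.15 in shMettl14 A, but 10.3 in shCTR B and 11.2 in shMettl14 B. Letter B was above letter A by 1.92 on the log2 scale with shCTR and by 1.83 with shMettl14, whereas the hairpins differed by 0.22 within A and 0.13 within B. Its log2 fold change was 0.15 (SE 0.86), and -0.51 without shCTR A and -1.04 without shMettl14 B. Of the low receptors, *S1pr4*, a leukocyte receptor, had 34 and 30 counts in shCTR A and B and 11 and 86 in shMettl14 A and B. *S1pr5* had 14 and 57 counts in shCTR and 4 and 17 in shMettl14, a log2 fold change of -1.96 (SE 1.10).

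*Enpp2* lies on chromosome 15 from 54838901 to 54952892, minus strand, and 5.97% of its exon bases overlap *Gm26684* on the other strand. It had 2.83 and 2.06 CPM in shCTR A and B (321 and 222 counts) and 4.21 and 2.65 CPM in shMettl14 A and B (500 and 345 counts). The letter A library was the higher in each group, and shMettl14 B lay below shCTR A. The log2 ratio was 0.57 in letter A and 0.37 in letter B, and the log2 fold change was 0.49 (SE 0.42). Summed over the LPA receptors, the per-length level was 18.2 and 17.6 CPM per kb in shCTR A and B and 17.3 and 15.9 in shMettl14 A and B. For the S1P receptors, where *S1pr1* sets the sum, it was 66.3 and 74.3 in shCTR and 59.3 and 49.1 in shMettl14.

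For most of these genes, as for most of all genes tested, the letters differed more than the hairpins. The mean difference between letters was larger than that between hairpins in 6 of the 9 genes, the exceptions being *Lpar2*, *Lpar3* and *S1pr1*, and in 64.2% of all genes tested. In 7 genes the letters differed in the same direction under both hairpins. *Lpar1*, *S1pr2* and *Enpp2* were higher in letter A, and *Lpar2*, *Lpar4*, *Lpar6* and *S1pr3* in letter B. The share of all genes for which this held was not counted, so it cannot be called particular to these genes. Over all genes tested, libraries of one letter deviated together from their group means (correlation 0.578). The smooth muscle myosin *Myh11* also followed the letters, with 338 and 233 CPM in the shCTR and shMettl14 libraries of letter A and 101 and 75 CPM in those of letter B, whereas *Myocd* had 0.546 and 0.918 CPM in A and 7.1 and 6.6 CPM in B. Whether cell makeup had a part in the letter differences was not tested.

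**Figure D4:**
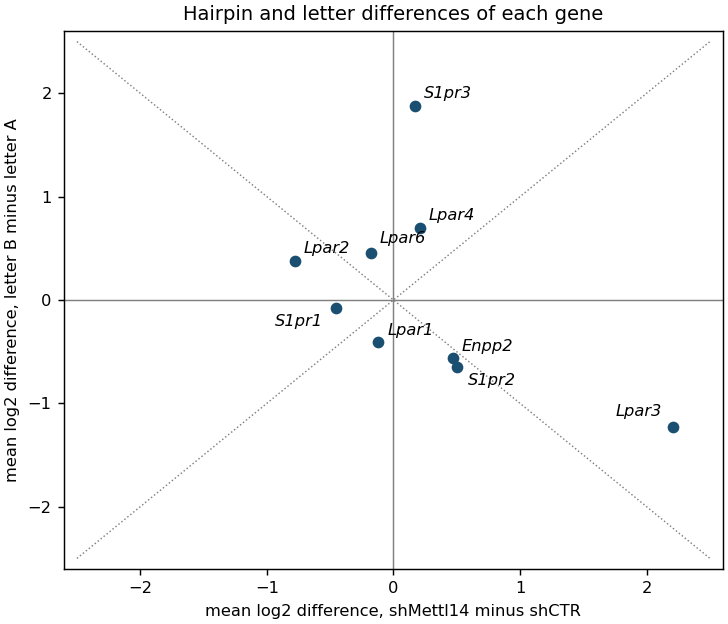
Mean log2 difference between the hairpins (horizontal, shMettl14 minus shCTR) and between the letters (vertical, B minus A) for each of the 9 genes, with dotted lines where both are of equal size. *S1pr3* lies at 1.88 between letters and 0.17 between hairpins, whereas *Lpar2* lies at 0.38 and -0.78.

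Around the receptors, the genes that make and remove LPA mostly had negative log2 fold changes, and none passed the test. Of 19 genes listed, *Enpp2* among them, 17 were tested, 3 with a positive and 14 with a negative log2 fold change, at a median of -0.15 (0.009 over all genes). None had an adjusted p under 0.05, and 1, *Plpp1*, an unadjusted p under 0.05 with edgeR, beside 1.67% of all genes tested. *Plpp1*, a lipid phosphatase that dephosphorylates LPA and S1P at the cell surface, was also the most abundant of the list per length. It had 198 and 169.7 CPM in shCTR A and B and 124 CPM in each shMettl14 library, a log2 fold change of -0.57 (SE 0.20, adjusted p = 1). *Gdpd1*, a phosphodiesterase that releases LPA from lysophospholipids, had 14.4 and 20.6 CPM in shCTR and 9.11 and 14 CPM in shMettl14 (log2 fold change -0.60, SE 0.34). In 6 of the 17 genes both shMettl14 libraries were below both controls, beside 13.3% of all genes tested.

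For S1P, 22 of 23 listed genes were tested, 10 with a positive and 12 with a negative log2 fold change, at a median of -0.04. With edgeR 0 had an adjusted and 0 an unadjusted p under 0.05. *Degs1*, the desaturase that makes ceramide, was the most abundant per length, at 327 and 387 CPM in shCTR A and B and 251 and 288 CPM in shMettl14 A and B (log2 fold change -0.41, SE 0.21). *Sgpl1*, the lyase that degrades S1P irreversibly, ran the other way, with 162 and 125 CPM in shCTR and 185 and 194 CPM in shMettl14 (log2 fold change 0.40, SE 0.22).

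Downstream, 26 of 27 genes for G proteins and their effectors were tested, 10 positive and 16 negative, with 0 under an unadjusted p of 0.05 and a median of -0.07. *Rhoc* was the most abundant per length, at 527 and 334 CPM in shCTR A and B and 365 and 403 CPM in shMettl14 A and B. *Gnai2*, the Gi subunit that *S1pr1* and the older LPA receptors use, had 910.5 and 828 CPM in shCTR and 686 and 682 CPM in shMettl14 (log2 fold change -0.35, SE 0.18). *Rac1* was likewise at -0.35 (SE 0.19). Of the receptor kinases, arrestins and RGS proteins, which end receptor signalling, 15 of 17 were tested, 5 positive and 10 negative, with 0 under an unadjusted p of 0.05 and a median of -0.07. *Rgs5*, a pericyte and smooth muscle RGS protein, followed the letters, with 286 and 270.0 CPM in the shCTR and shMettl14 libraries of letter A and 40.5 and 48.8 CPM in those of letter B. *Rgs4* had a log2 fold change of 0.77 (SE 0.79) and *Rgs10* one of -0.65 (SE 0.35).

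The genes that LPA and S1P are known to raise through SRF and YAP had the lowest median of the 6 lists, -0.24, with 5 of 17 positive and 12 negative. None had an adjusted p under 0.05 with edgeR, and 2, *Ankrd1* and *Ccn2*, an unadjusted p under 0.05, beside 1.67% of all genes tested. Both are targets of YAP, and other signals than these lipids raise them too. *Ankrd1* had 756 and 669.6 CPM in shCTR A and B and 342 and 356 CPM in shMettl14 A and B, a log2 fold change of -1.03 (SE 0.19, adjusted p = 1). *Ccn2*, connective tissue growth factor, had 3428 and 3432 CPM in shCTR and 2307 and 2104 CPM in shMettl14, a log2 fold change of -0.64 (SE 0.18, adjusted p = 1). *Ccn1*, the most abundant per length, had 2515 and 2104 CPM in shCTR and 2075 and 1624 CPM in shMettl14 (log2 fold change -0.32, SE 0.22). In 7 of the 17 genes both shMettl14 libraries were below both controls, beside the 13.3% of all genes tested. *Fos* and *Fosb*, from the same list, were at 0.08 and 0.20, with overlapping groups. The summed smooth muscle markers, several of them SRF targets as well, were lower in shMettl14 within each letter, as given above, and their part in these values was not tested.

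The other lipid receptors were mostly low. Of 20 listed, 10 were tested, 7 positive and 3 negative, with a median of 0.09 and 0 under an unadjusted p of 0.05 with edgeR. *Gpr4*, a proton-sensing receptor of endothelial cells, was the most abundant per length. It had 11 and 21.2 CPM in shCTR A and B and 7.34 and 10.6 CPM in shMettl14 A and B, a log2 fold change of -0.85 (SE 0.41, adjusted p = 1).

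**Figure D5:**
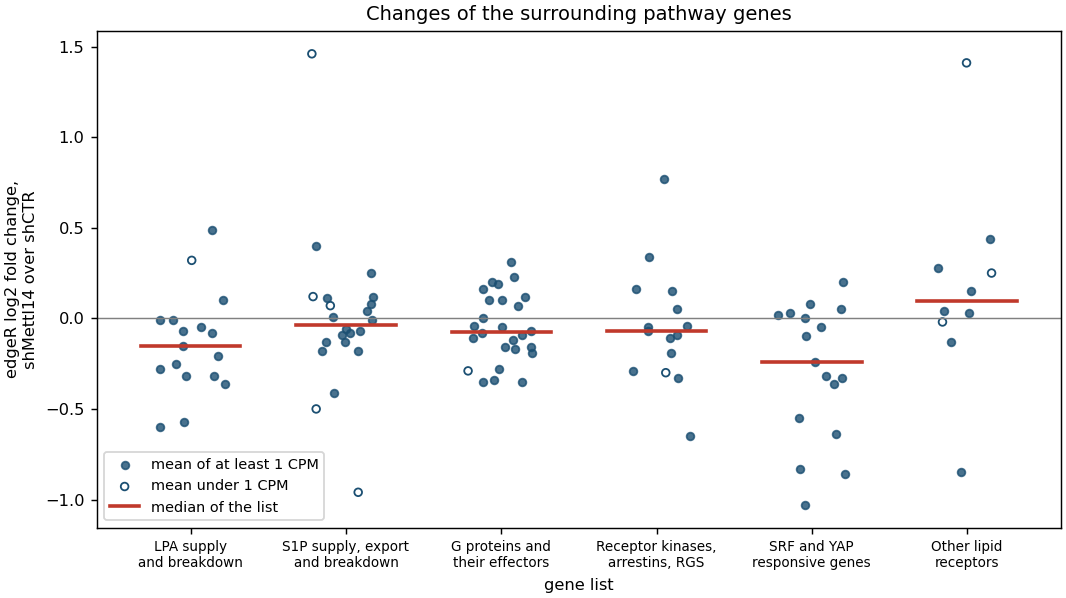
Log2 fold change of shMettl14 over shCTR by edgeR for each tested gene of 6 lists around the receptors, filled where the mean is at least 1 CPM and open below it, with the median of each list as a red line. The medians run from -0.24 for the genes responsive to SRF and YAP to 0.09 for the other lipid receptors, and no gene has an adjusted p under 0.05.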

How the data were processed

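Poly-A RNA of VSMCs, as 2 libraries per hairpin, was sequenced as strand-specific read pairs. Per the labels, the authors mapped reads to mm10 (GRCm38) with STAR and counted them with featureCounts. The deposited values are raw counts per gene symbol. The strand setting and the handling of multimapping reads are not given in the sources used here. Unstranded counting could have changed the counts of *Lpar6*, *Enpp2*, *S1pr3* and *S1pr5*, whose exons share bases with genes on the other strand. The direction of such a change is not known.

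Counts were normalized by TMM and filtered by filterByExpr in edgeR 4.0.16 (R 4.3.3), and shMettl14 was compared with shCTR by a robust quasi-likelihood fit without a block, with Benjamini-Hochberg adjustment over 18916 genes and a threshold of 0.05. The study names DESeq2, which was an alternative here (1.42.0). A standard error was taken as the size of the fitted log2 fold change over the root of its F statistic. Levels are TMM-normalized CPM, divided by the exon union of GENCODE M21 for comparisons between genes. Within-letter log2 ratios used a prior count of 2. Other alternatives were RLE and upper-quartile factors, a replicate block, leaving out each library, a count minimum of 10 per library or no filter, a prior count of 0.5, ratios on library totals, and other gene lengths. The fits were also run on simulated counts, a check of the code that does not measure how well they find changes in these data.

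The genes and lists were chosen with earlier results of these data known. Beside the receptors, the genes named were, per list, the most abundant per length and the 2 with the largest change of one sign in both letters at a mean of at least 1 CPM, any list gene past the threshold, and the 3 genes nearest in pattern to *Lpar2*, which had the largest change of the 9 at a mean of at least 1 CPM. Not every gene so chosen is reported here. Genes with an unadjusted p under 0.05, *Fos*, *Fosb* and the cell type markers were named after their values were seen. Table symbols *Cyr61* and *Ctgf* are given as *Ccn1* and *Ccn2*.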

Additional observations from a re-analysis of the deposited data

How the results depend on the processing

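Of the 9 receptor and *Enpp2* genes, 0 had an adjusted p under 0.05 under any of the alternatives run, in which the lowest adjusted p of *Lpar2* was 0.285 and that of *S1pr1* 0.331. *Lpar3* gave no value with at least 10 counts in every library, and no adjusted p by DESeq2 with a replicate block (log2 fold change 3.23, SE 1.87). Of 321 alternative values, 294 kept their direction and side of the threshold or moved by less than the spread, 20 moved and 7, fitted log2 fold changes with 1 library left out, changed sign. The ranges over the libraries left out were -0.39 to 0.14 for *Lpar1*, -1.03 to -0.52 for *Lpar2*, 0.95 to 7.49 for *Lpar3*, -0.24 to 0.61 for *Lpar4*, -0.46 to 0.08 for *Lpar6*, -0.62 to -0.28 for *S1pr1*, 0.06 to 0.97 for *S1pr2*, -1.04 to 1.41 for *S1pr3* and 0.12 to 0.79 for *Enpp2*, and the number of genes called among all tested was 0 or 1. DESeq2 called 5 of all genes. On library totals without TMM, 2 within-letter log2 ratios also changed sign, *Lpar6* to 0.05 in letter B and *Lpar1* from -0.0025 to 0.08 in letter A. The mean share of *S1pr1* among S1P receptors was 92.1% in shCTR with the longest transcript as length, and without a length it was 86.2% in shCTR and 77.9% in shMettl14, since *S1pr2* has the longer exons.

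The letters were also used as a replicate block. Libraries of one letter deviated together from their group means (correlation 0.578), so the letters carried differences shared across the hairpins. With 2 pairs and no statement of a shared culture, what the letter stands for is not known. The main fit had no block, so these differences counted as spread within the groups. With the replicate block, edgeR called 9 genes and DESeq2 120, and the common dispersion was 0.0418 in place of 0.178. None of the 9 receptor and *Enpp2* genes was among the genes called. In the edgeR block fit 3 of the 9 had an unadjusted p under 0.05, beside 1941 of all 18916 genes tested. The 3 were *Lpar2* (-0.78, SE 0.24, adjusted p = 0.326), *S1pr1* (-0.45, SE 0.17, adjusted p = 0.427) and *S1pr2* (0.50, SE 0.18, adjusted p = 0.389). DESeq2 with the replicate block called 4 of the 17 genes responsive to SRF and YAP, *Ankrd1*, *Ccn2* and *Ptgs2* among them. It also called 1 of the 10 endothelial markers, *Emcn*, and all of these were lower with shMettl14. Over all genes it called 120 of 29127, and the lists were chosen with earlier results of these data known.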
